A study of Mus musculus with 2 samples.

Results

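The 10 genes described here carry out MHC class I antigen presentation, and they were followed in metastatic cells, in the lung cells around them and from cell to cell. They are B2m, H2-K1, H2-D1, H2-T23, Tap1, Tap2, Tapbp, Psmb8, Psmb9 and Psmb10, 10 of the 27999 genes in both libraries, and all 10 were detected. The set was chosen by gene name with measured values of these libraries already known, so the differences below are a description and no test was made on them. Single-cell RNA sequencing was performed on dissociated lungs of female FVB/NJ mice whose tail veins had received, at 10 weeks of age, 500000 Met-1 mouse mammary carcinoma cells, a line derived from an MMTV-PyMT tumor that carries the PyMT transgene. Both groups shared the strain, the injected line and the dose. The low-burden group was 1 mouse taken 1 week after injection, and the high-burden group was 1 mouse taken at week 3. With 1 library per group, week, burden, mouse and library cannot be told apart, and every interval given is a 95% interval that covers counting error only.

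MHC class I molecules display fragments of a cell's own proteins to CD8+ T cells and are recognized by receptors of natural killer cells. A heavy chain (H2-K1, H2-D1 or the non-classical H2-T23) pairs with the light chain beta-2 microglobulin (B2m). Proteasomes cut proteins into peptides, and in cells exposed to interferon the catalytic subunits Psmb5, Psmb6 and Psmb7 are replaced by Psmb8, Psmb9 and Psmb10 to form the immunoproteasome. The peptides are pumped into the endoplasmic reticulum by the Tap1 and Tap2 transporter, and tapasin (Tapbp) holds the empty class I molecule at that transporter while it is loaded. Most nucleated cells make these proteins, leukocytes and endothelium in large amounts, and tumors often express little of them.

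Of the 10 genes, 8 lie on chromosome 17 of mm10 within 2116957 bases, and the other two are B2m (chr2:122147686-122153083, + strand) and Psmb10 (chr8:105935735-105938444, - strand). From its proximal end the chromosome 17 group holds Tapbp (chr17:33915899-33929292, +), H2-K1 (chr17:33996017-34000347, -), Psmb9 (chr17:34181987-34187764, -), Tap1 (chr17:34187553-34197225, +), Psmb8 (chr17:34197721-34201454, +), Tap2 (chr17:34203527-34216321, +), H2-D1 (chr17:35262730-35267499, +) and H2-T23 (chr17:36029773-36032855, -). Psmb9, Tap1, Psmb8 and Tap2 follow each other within 34335 bases, and the annotated ends of the divergent genes Psmb9 and Tap1 overlap by 212 bases. The 250 bases before the RefSeq start (GRCm38.p6) are shown for the light chain and for 1 heavy chain. RNA of the light chain varied together with the summed heavy chains between metastatic-like cells. Each window is given on the gene's own strand, with matches to 4 short motifs in capitals.
B2m, chr2:122147437-122147686, + strand: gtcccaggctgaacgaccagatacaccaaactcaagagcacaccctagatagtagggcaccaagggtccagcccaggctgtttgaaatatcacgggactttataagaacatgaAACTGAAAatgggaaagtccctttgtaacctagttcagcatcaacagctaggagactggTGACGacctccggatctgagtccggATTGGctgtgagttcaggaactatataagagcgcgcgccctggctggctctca
H2-K1, chr17:34000348-34000597, - strand: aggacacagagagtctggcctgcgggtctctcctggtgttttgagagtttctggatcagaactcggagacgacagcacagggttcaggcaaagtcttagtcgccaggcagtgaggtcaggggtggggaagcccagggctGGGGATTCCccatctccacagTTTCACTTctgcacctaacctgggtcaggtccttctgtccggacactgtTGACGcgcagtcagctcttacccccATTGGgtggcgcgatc
The motifs were AANNGAAA, the core bound by interferon regulatory factors, GGGNNTTCC of the kB type, TGACG of the cyclic AMP response element type and ATTGG, the inverted CCAAT box, each searched on both strands. The H2-K1 window held all 4, and the B2m window held all but the kB type. Among the 9 genes with a RefSeq window, AANNGAAA was present in 4 (B2m, H2-K1, H2-D1 and H2-T23), against 21.3% of 32536 mouse promoter windows of the same length. GGGNNTTCC was present in 2 (H2-K1 and H2-D1), against 5.0% of all windows, TGACG in 5, against 17.9%, and ATTGG in 7, against 33.8%. The Tap1 and Psmb9 windows cover largely the same bases on opposite strands, so their TGACG and ATTGG matches are the same sites. The H2-K1 and H2-D1 windows closely resemble each other in sequence. The counts are therefore not counts of independent promoters. These matches describe letters and not bound sites.

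Cells were assigned to classes by marker gates that used none of the 10 genes and no interferon gene. After filtering, 2473 low-burden cells with a median of 4073 UMIs (unique molecular identifiers, each 1 captured RNA molecule) and 3033 high-burden cells with a median of 13998 UMIs were kept, and the libraries shared 11 cell barcodes. Metastatic-like cells numbered 1208 in the high-burden library and 0 of 2473 in the low-burden library. The gate used 10 metastatic markers, so their higher level in these cells follows from the choice of cells. Of the metastatic-like cells, 1189 fell into 2 clusters built without the gate. These clusters were picked because most of their gated cells carried the metastatic call, so the overlap is no check of the gate. The other gated cells of the high-burden library numbered 1347, of which 799 were C1q macrophage-like, and 11 lung classes had at least 20 cells in both libraries. The gate names of AT1-like cells (6 of 20 in the metastatic clusters) and of monocyte-like cells (5 of 9 markers at least 2-fold higher) were the least firm of these at high burden.

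Class I presentation genes made up a smaller share of RNA in metastatic-like cells than in the other gated cells of the same lung. The 10 genes summed to 4626 CPM (UMIs of the gene per 1e6 UMIs of the class, interval 4602 to 4651) in metastatic-like cells and to 9781 CPM in the other gated cells, a 2.11-fold lower level (log2 ratio -1.08, -1.09 to -1.07). CPM compares shares of RNA and not amounts per cell. In counts, the 1208 metastatic-like cells gave 136633 UMIs of the 10 genes and the 1347 other gated cells gave 152040. By CPM all 10 genes were lower, 5 of them by 2-fold or more, with a median log2 ratio of -1.04. Over the 8780 genes with at least 10 CPM on either side the median was 0.13, with 17.5% lower and 10.4% higher by 2-fold or more.

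The light chain B2m stood at 1530 CPM in metastatic-like cells and 3702 CPM in the other gated cells (log2 ratio -1.27, -1.29 to -1.26). Among the heavy chains, the classical H2-D1 stood at 1442 and 3275 CPM (-1.18, -1.20 to -1.17). H2-K1, the other classical chain, stood at 722 and 1350 CPM (-0.90, -0.93 to -0.88). The non-classical H2-T23, whose product presents leader peptides to natural killer cell receptors, stood at 54.0 and 167 CPM (-1.63, -1.72 to -1.54). The heavy chain genes share sequence with each other and with the H2-Q genes, and FVB mice carry another H2 haplotype than the C57BL/6 reference, so the split of UMIs among them is uncertain. Without the 3 heavy chains the summed log2 ratio was -1.05. Most of the UMIs left were of B2m (45187 in metastatic-like cells, with Psmb8 next at 13529), so this value largely follows B2m.

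In the transport and loading step, the transporter subunits differed from each other. Tap1 stood at 22.8 CPM in metastatic-like cells and 69.4 CPM in the other gated cells (-1.60, -1.75 to -1.46), whereas its partner Tap2 stood at 44.0 and 57.8 CPM (-0.39, -0.51 to -0.27). Tapasin (Tapbp) was closest to the other cells, at 140 and 162 CPM (-0.21, -0.28 to -0.14).

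The immunoproteasome subunits also split. Psmb9, which starts beside Tap1 on the opposite strand, stood at 68.3 and 196 CPM (-1.52, -1.60 to -1.44). Psmb8 stood at 458 and 594 CPM (-0.37, -0.41 to -0.34), and Psmb10 at 146 and 207 CPM (-0.51, -0.58 to -0.44). Psmb8 was the only one of the 10 to change direction under another processing, at 0.10 when C1q macrophage-like cells were left out of the reference. The 3 standard subunits leaned the other way, with log2 ratios of 0.20 for Psmb5, 0.38 for Psmb6 and 0.60 for Psmb7, none of them past 2-fold.

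Set against each lung class in turn, metastatic-like cells ranked 10 of 12 high-burden classes by the summed level. Mesothelial-like cells, the lining of the lung surface, were highest at 14822 CPM, followed by monocyte-like cells at 13286 CPM and C1q macrophage-like cells at 10799 CPM. Blood vessel endothelial-like cells stood at 9373 CPM, T-like cells at 8600 CPM and alveolar fibroblast-like cells at 8529 CPM, the last pair with overlapping intervals. B-like cells at 7021 CPM, adventitial fibroblast-like cells at 6568 CPM and AT2-like cells at 6306 CPM also overlapped with their neighbors in the order. The 2 classes below metastatic-like cells were AT1-like cells at 4139 CPM and smooth muscle or pericyte-like cells at 3182 CPM, 20 cells each.

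**Figure D1:**
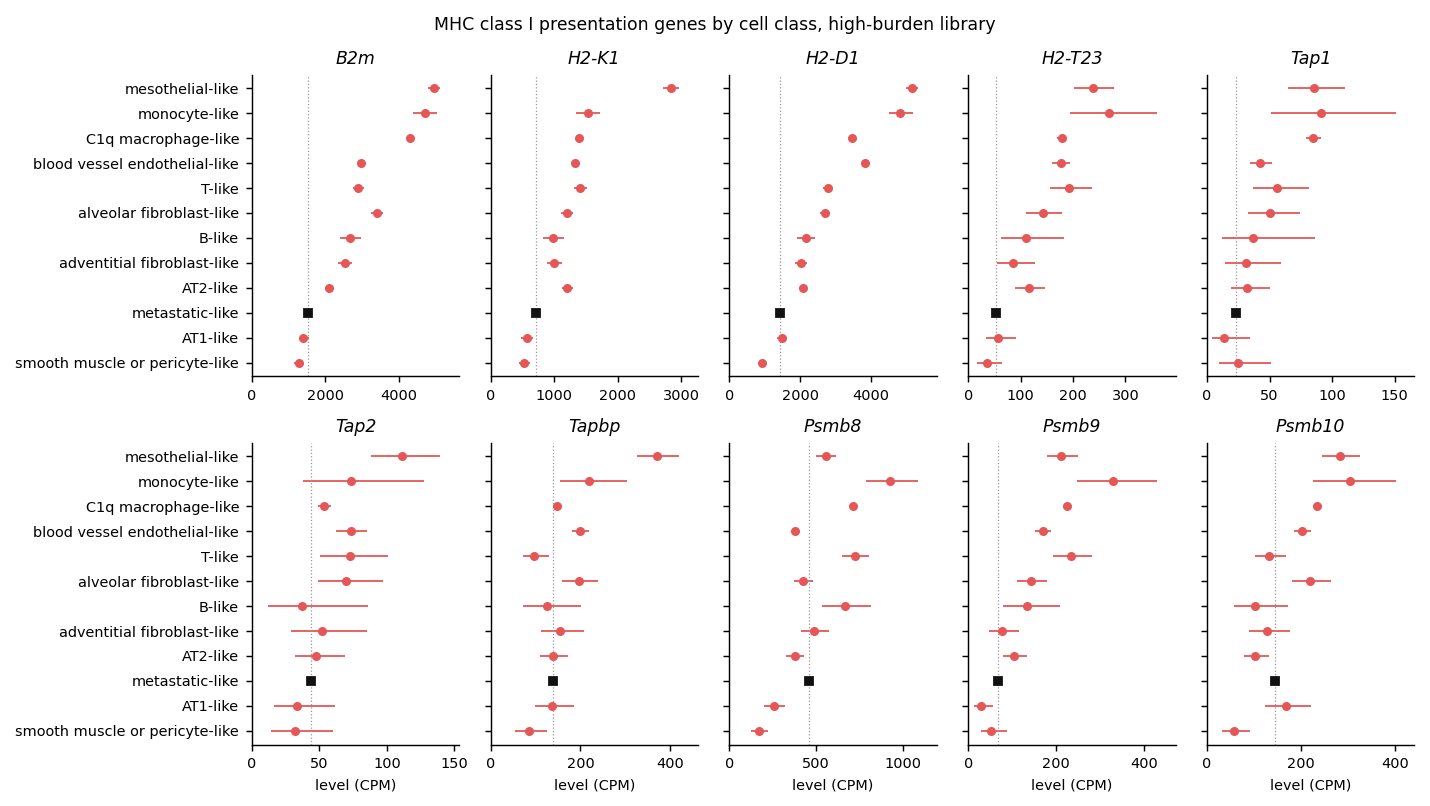
Level of each of the 10 genes (x axis, CPM, separate linear scale per gene) in the 12 high-burden classes with at least 20 cells (y axis, ordered by the summed level), with 95% Poisson intervals. The black square and dotted line mark metastatic-like cells, which lie near the low end for B2m, the heavy chains, Tap1 and Psmb9 and mid-range for Tapbp, Psmb8 and Psmb10, each 7 of 12.

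Counted gene by gene, 8 of the 10 genes were 2-fold or more lower in metastatic-like cells than in mesothelial-like cells (median log2 ratio -1.67), against 18.7% of all genes in that comparison. The same count held against monocyte-like cells (median -1.35), against 19.4% of all genes, and against 17 dendritic-like cells (median -1.47), against 17.2%. The dendritic-like cells summed to 13741 CPM, with Psmb9 (-3.08) and Tap1 (-2.77) furthest apart. Against C1q macrophage-like cells 5 of 10 genes were 2-fold lower (13.9% of all genes), and against alveolar fibroblast-like cells 4 (21.1%). Blood vessel endothelial-like cells (22.2%) and T-like cells (14.1%) gave 3 each, close to the share of all genes in the endothelial comparison. AT2-like (13%) and B-like cells (16.3%) gave 1 each, H2-T23 in both, near that share as well, and adventitial fibroblast-like cells gave none (19.5%). Against smooth muscle or pericyte-like cells 9 of 10 genes were higher, 2 of them by 2-fold or more, namely Psmb8 (1.44) and Psmb10 (1.37), against 13% of all genes. Against AT1-like cells 7 of 10 were higher, and Psmb9 passed 2-fold (1.18), against 7.38% of all genes. Among the other classes with fewer than 20 high-burden cells, 17 club-like cells summed to 2094 CPM and 19 ciliated-like cells to 2121 CPM. In the club-like comparison 6 of 10 genes were 2-fold higher in metastatic-like cells, against 50.9% of all genes, and in the ciliated-like comparison 4, against 26.2%. Metastatic-like cells had the lowest level of the 12 classes for none of the genes, and for 8 of the 10 genes smooth muscle or pericyte-like cells were lowest.

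**Figure D2:**
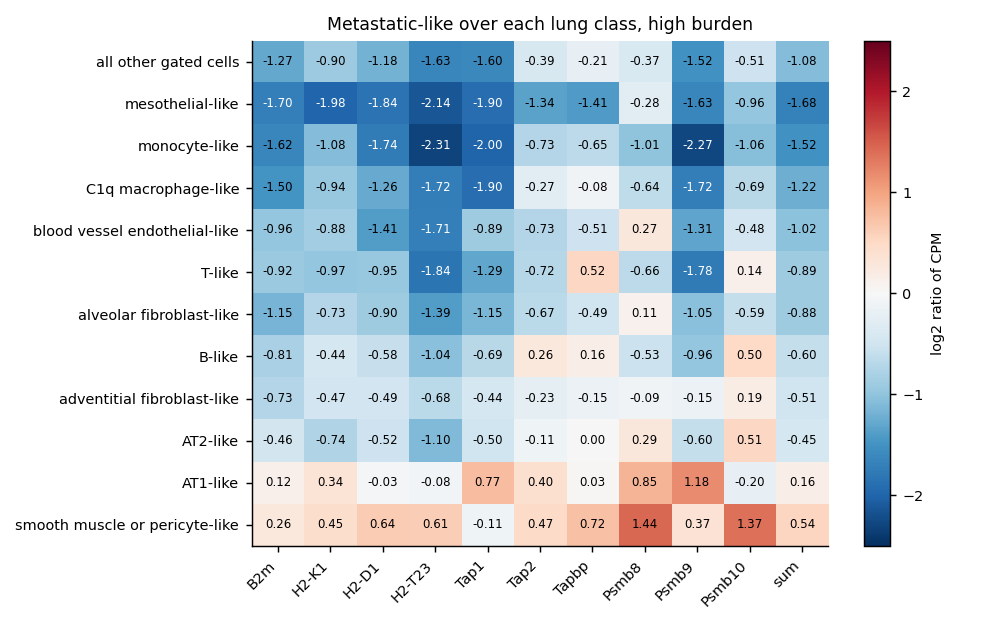
Log2 ratio of CPM, metastatic-like over each high-burden lung class (rows) for the 10 genes and their sum (columns), with blue for lower and red for higher in metastatic-like cells. Blue fills the rows of mesothelial-like, monocyte-like and C1q macrophage-like cells, and red the row of smooth muscle or pericyte-like cells in all but Tap1 (-0.11).

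Free RNA of burst cells, which is captured in the droplets of other cells, was gauged from leukocyte genes. These genes, which carcinoma cells should lack, stood in metastatic-like cells at 4.83% of their level in the other gated cells (3.70 to 11% over 10 genes), whereas the 10 presentation genes stood at 32.3 to 86.4%. Taking all leukocyte RNA in metastatic-like cells as free RNA, 14.5 to 24.3% of each gene's level there would be free RNA. Subtracting it moved the summed log2 ratio from -1.08 to -1.25. This estimate is not an upper limit, since 7 epithelial and endothelial genes stood in metastatic-like cells at 7.03 to 13.2% of the other gated cells, and it accounted for 45.8 to 77.5% of their level there. With the share set by the gene among them that implied the most, 31.6 to 53.0% of each presentation gene's level in metastatic-like cells would be free RNA, and the summed log2 ratio was -1.54. C1q macrophage-like cells made up most of the reference, and without them the ratio was -0.86. Metastatic-like cells were also the deepest, with a median of 22808 UMIs, and with every cell thinned to 3000 UMIs the ratio was -1.02.

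The cofactors of the pathway were mixed. Of the 7 other loading and trimming factors, 1 was 2-fold lower in metastatic-like cells (the tapasin relative Tapbpl, -1.25), near the 17.5% of all genes. The endoplasmic reticulum chaperone Hspa5 stood at -0.41, the chaperone calnexin (Canx) at -0.12 and the translocon subunit Sec61a1 at 0.42. Of the proteasome activator subunits, the interferon-inducible Psme1 stood at -0.84 and Psme2 at -0.31, and Psme3, found mainly in nuclear proteasomes, at 0.52. Among other class I heavy chains, 3 of 6 past 10 CPM were 2-fold lower, against 17.5% of all genes. H2-Q6 (-2.70) and H2-Q7 (-1.54) were lowest, while the lipid-presenting Cd1d1 (0.52) and H2-T22 (0.01) were highest.

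Among transcriptional regulators of class I genes, none past 10 CPM was 2-fold higher in metastatic-like cells, against 10.4% of all genes. In so short a list that share is close to none. Irf8 (-3.62), a factor of macrophages and B cells, and Irf2 (-1.54) were 2-fold lower, as were 17.5% of all genes. Irf1 stood at -0.49, Rela at -0.72, Nfkb1 at 0.13, Rfxank at 0.12 and Rfxap at 0.72. The class I transactivator Nlrc5 did not reach 10 CPM, with 107 UMIs (3.62 CPM) in metastatic-like cells and 8.49 CPM in the other gated cells, and Rfx5 stood at 8.40 and 5.79 CPM. Of 9 interferon receptor and signaling genes past 10 CPM, 5 were 2-fold lower, against 17.5% of all genes. Ifnar2 (-2.11) and Ifnar1 (-2.04), the receptor of type I interferons, were lowest, and Socs1 (0.52) and Tyk2 (-0.65) at the other end. The reference was rich in leukocytes, with 799 C1q macrophage-like cells among 1347. No interferon ligand reached 10 CPM. Ifng gave 5 UMIs in metastatic-like cells and 18 in the other gated cells, of which 14 were in T-like cells, and Ifnb1 and Ifna4 gave none in metastatic-like or other gated cells. Of 8 leukocyte receptor and coreceptor genes, 3 passed 10 CPM and all 3 were lower in metastatic-like cells. They were Pirb (-4.25) and Lilrb4a (-4.24), both myeloid genes, and the NK and T cell receptor Klrk1 (-3.99). The 10 leukocyte genes that gauged free RNA had a median of -4.31.

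The relative use of immunoproteasome subunits was read as the share of Psmb8, Psmb9 and Psmb10 among the UMIs of these and their 3 standard counterparts, which compares classes and not genes. The share was 41.8% in metastatic-like cells (Clopper-Pearson interval 41.4 to 42.2) and 58.3% in the other gated cells (57.7 to 58.9). Within the pairs, Psmb9 against Psmb6 separated the cells most, at 13.6% and 37.1%. Psmb8 against Psmb5 gave 65.8% and 74.1%. At high burden the share was 62.0% in C1q macrophage-like cells, 59.5% in mesothelial-like cells, 47.0% in AT2-like cells and 25.1% in smooth muscle or pericyte-like cells. Between the libraries it was lower at low burden in AT2-like cells (36.6%), adventitial fibroblast-like cells (32.9% against 51.4%) and alveolar fibroblast-like cells (35.6% against 52.5%). It was also lower at low burden in mesothelial-like cells (38.7% against 59.5%) and C1q macrophage-like cells (54.6% against 62.0%). In each of these classes the intervals did not overlap. In blood vessel endothelial-like cells the share was higher at low burden, at 64.4% against 50.3%.

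**Figure D3:**
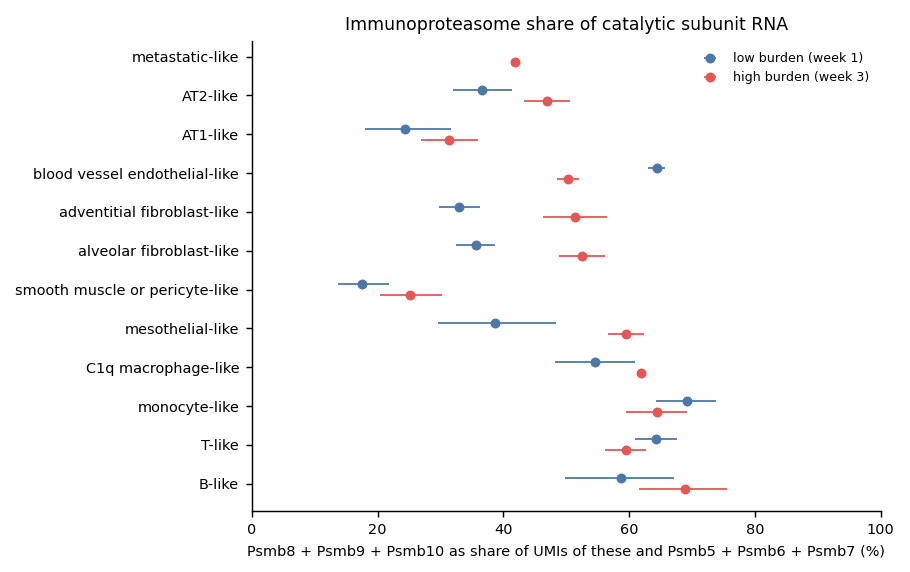
Immunoproteasome subunits as a share of catalytic subunit UMIs (x axis, %) in metastatic-like cells and the 11 lung classes (y axis), with blue for low and red for high burden and 95% Clopper-Pearson intervals. The fibroblast-like, AT2-like and mesothelial-like classes lie further right at high burden, and blood vessel endothelial-like cells further left.

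The lung classes themselves differed between low and high burden, and not in 1 direction. Over the 11 classes the summed level was higher at high burden in 6 and lower in 5, with a median log2 ratio of 0.20. Among all gene-by-class values past 10 CPM, 16.7% were 2-fold or more higher at high burden and 18.3% lower. Mesothelial-like cells moved furthest upward, from 7096 to 14822 CPM (1.06, 0.97 to 1.16), with 9 of 10 genes higher and 6 by 2-fold or more, on 20 and 37 cells. Of all genes tested in that class 17.6% were 2-fold or more higher. AT2-like cells, which make surfactant, went from 3642 to 6306 CPM (0.79, 0.72 to 0.87). There all 10 genes were higher, with B2m at 919 and 2111 CPM (1.20), Psmb8 at 124 and 376 CPM (1.60) and Psmb9 at 41.7 and 104 CPM (1.31) past 2-fold. Of all genes tested in AT2-like cells 17.6% were 2-fold or more higher. The median over the 10 genes was 0.84 against 0.19 over all genes tested in that class. By the pooled sum, adventitial (0.62, 0.55 to 0.70) and alveolar fibroblast-like cells (0.56, 0.51 to 0.62) were higher too, with 8 and 9 of 10 genes higher. Their medians over the 10 genes were 0.65 and 0.74, against -0.007 and -0.065 over all genes tested. In both classes, Psmb8 (2.67 and 1.82) and H2-K1 (1.26 and 1.09) passed 2-fold, as did Tap1 in alveolar fibroblast-like cells (1.31). Of all genes tested, 14.9% in adventitial and 10.4% in alveolar fibroblast-like cells were 2-fold or more higher, so the adventitial count is near that share. After the same thinning, the median adventitial fibroblast-like cell was not higher, at 12 UMIs at low and 11.5 at high burden. There 3 of 30 high-burden cells held 33.3% of the UMIs of the 10 genes. In alveolar fibroblast-like cells the median went from 14 to 20 UMIs.

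Blood vessel endothelial-like cells stood at the other end. Their summed level was 15842 CPM at low burden and 9373 CPM at high burden (-0.76, -0.78 to -0.73), with all 10 genes lower and a median of -0.73 against -0.12 over all genes tested in that class. H2-D1 was at 7631 and 3820 CPM (-1.0), and H2-T23 (-1.09) was the 1 gene of 10 past 2-fold, against 5.92% of all genes in that class. Psmb8 was closest to 0 (-0.13). B-like cells were lower in 9 of 10 genes (sum -0.55), although all genes tested in that class had a median of -0.28. AT1-like cells were lower by the sum (-0.44) and in 6 of 10 genes. In monocyte-like and T-like cells the sum and the single genes went opposite ways. The sum was lower in monocyte-like cells (-0.34), with B2m at -0.46 and H2-D1 at -0.60, while 8 of 10 genes were higher (median 0.27). In T-like cells it was lower (-0.20), with H2-D1 at -0.60, while 6 of 10 genes were higher (median 0.18). By the sum, C1q macrophage-like (0.20) and smooth muscle or pericyte-like (0.36) cells were higher.

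**Figure D4:**
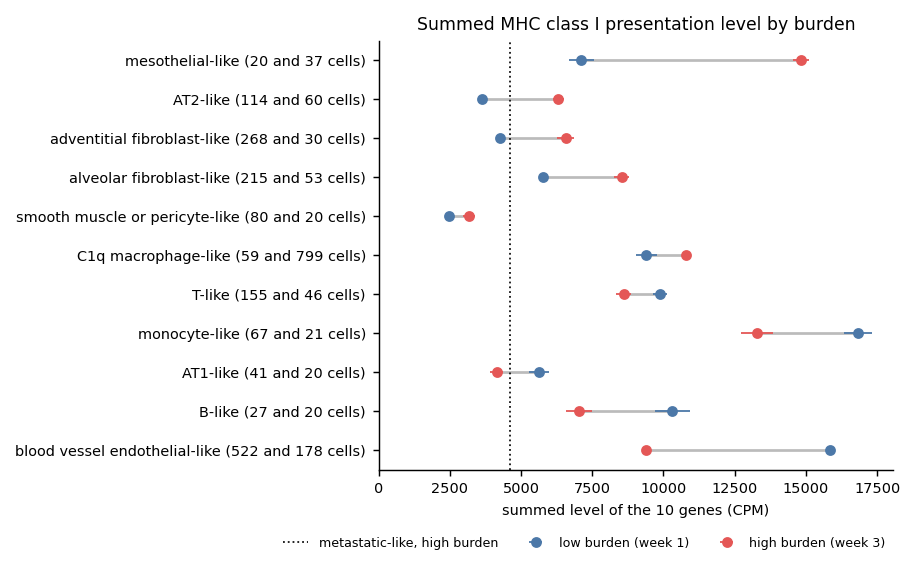
Summed level of the 10 genes (x axis, CPM) at low (blue) and high (red) burden in the 11 lung classes, ordered by their ratio, with 95% Poisson intervals and the cells per library in brackets. The dotted line marks metastatic-like cells at 4626 CPM. Blood vessel endothelial-like cells lie at 15842 (blue) and 9373 CPM (red), and mesothelial-like cells at 7096 (blue) and 14822 CPM (red).

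Gene by gene, the immunoproteasome leaned upward at high burden, as did Tap1 on few UMIs, while H2-D1 did not. Psmb8 was higher in 10 of the 11 classes, in 7 by 2-fold or more (median log2 ratio 1.42), the exception being blood vessel endothelial-like cells. Psmb8 went from 76.5 to 487 CPM in adventitial fibroblast-like cells and from 271 to 713 CPM in C1q macrophage-like cells. Tap1 and H2-K1 were higher in 9 of 11 classes each (medians 0.85 and 0.20), and Psmb9 and Psmb10 in 8 each (0.81 and 0.59). The Tap1 interval lay above 0 only in mesothelial-like, alveolar fibroblast-like and C1q macrophage-like cells. In the other classes where Tap1 was higher its interval spanned 0, with 19 UMIs at high and 12 at low burden in AT2-like cells. The share of all genes higher in as many classes is not given here. After subtraction of the free RNA expected from the leukocyte genes Tap1 was higher in 7 and H2-K1 in 8. B2m was higher in 6 of 11 (0.47). H2-D1 was lower in 7 of 11 (median -0.29), including C1q macrophage-like cells, where B2m was higher (0.47) and H2-D1 lower (-0.29). Tap2 was also lower in 7 and Tapbp in 6 of 11, with no class past 2-fold for either. The free RNA expected for Psmb8 in the same way was 21.5 CPM in the week 1 library and 69.5 CPM in the week 3 library. After its subtraction Psmb8 was higher in 10 of 11 classes and 2-fold higher in 7 (median 1.33). This estimate is not an upper limit, and the higher share from epithelial and endothelial genes was not applied to this comparison.

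Over 28 class-by-library sums of at least 20 cells, 9 of the 10 genes followed the mean of the other 9 with Pearson correlations of 0.73 to 0.94 on log2(CPM + 10), and Tapbp with 0.52. The sums share libraries and free RNA, so these values are descriptive. The genes outside the set with the most similar pattern, of 2810 with a mean of at least 50 CPM, included H2-Q7 (0.89), Psme1 (0.86), H2-Q4 (0.82), Sp100 (0.74), Ly6e (0.72), Psme2 (0.72) and Arpc3 (0.71). Sp100 was lowest of the 28 sums in metastatic-like cells, at 4.60 CPM.

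Metastatic-like cells varied among themselves more than most lung classes. At 3000 UMIs per cell the 10 genes gave a median of 9 UMIs per metastatic-like cell, with 4 at the 10th and 39 at the 90th percentile and a maximum of 103. The 121 of 1208 cells with the most held 35.6% of these UMIs. The excess squared coefficient of variation, the variance beyond counting noise divided by the squared mean, was 0.995, against a median of 0.115 over the 835 genes with a mean of at least 0.5 UMI in the same cells. C1q macrophage-like cells gave 0.221, with a median of 31 UMIs and 15 and 57 at the same percentiles, blood vessel endothelial-like cells 0.243 and T-like cells 0.255. AT2-like cells of the same library were as uneven, at 1.17 on 60 cells, and adventitial fibroblast-like cells gave 0.828 on 30 cells and mesothelial-like cells 0.513 on 37 cells. In the adventitial class the 3 cells with the most presentation UMIs also carried 16 leukocyte UMIs on average against 3.22 in the rest, and the part of this in the spread was not tested. At low burden these values were 0.302 in AT2-like and 0.230 in adventitial fibroblast-like cells, and the highest of the classes measured there was 0.590, in dendritic-like cells.

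**Figure D5:**
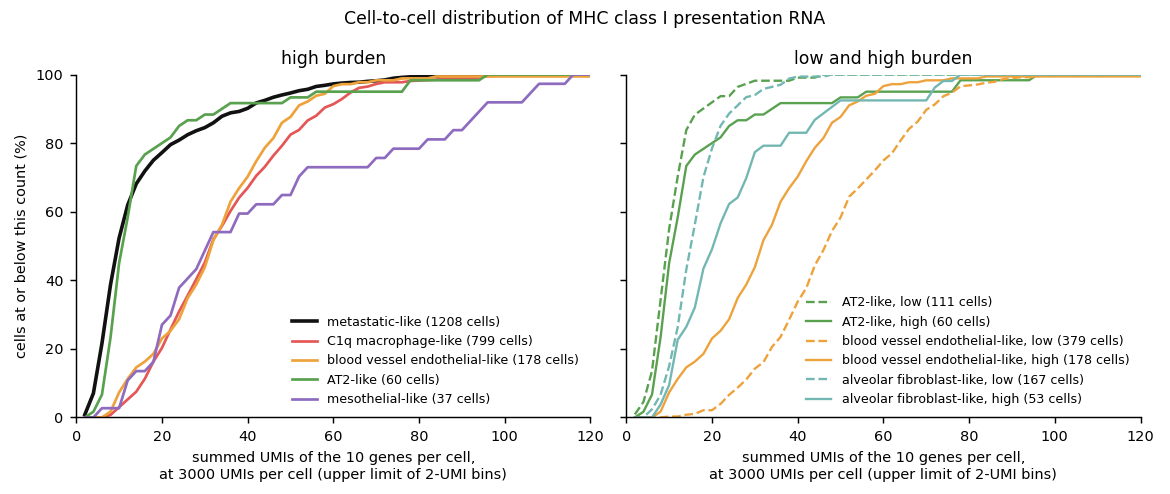
Share of cells (y axis, %) at or below a given number of summed UMIs of the 10 genes (x axis) with every cell thinned to 3000 UMIs, for 5 high-burden classes (left) and for 3 classes at low (dashed) and high (solid) burden (right). Metastatic-like cells rise steeply to a median of 9 UMIs and then carry a long tail to 103 UMIs, and AT2-like cells of the high-burden library carry a tail that those of the low-burden library lack.

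The spread lay in several of the genes. In metastatic-like cells the excess value was 0.919 for B2m, 1.21 for H2-K1, 1.17 for H2-D1 and 1.05 for Psmb8, above 94.6 to 96.9% of the 835 genes. B2m had no UMI in 6.46% of metastatic-like cells and H2-K1 in 28.1%, where counting noise around the mean alone would leave 0.629% and 9.39%. The rarer genes were too sparse at this depth to place among the 835, with means under 0.5 UMI for H2-T23, Tap1, Tap2, Tapbp, Psmb9 and Psmb10. Excess values of 3.82 for Psmb9 and 3.09 for H2-T23 were the highest of the 10, and Tapbp was lowest at 0.493.

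The genes varied together. Over the 1208 metastatic-like cells the Pearson correlation of UMIs was 0.79 between B2m and the heavy chains and 0.79 between H2-K1 and H2-D1 (Spearman 0.59 each), 0.71 between the B2m plus heavy chain sum and the immunoproteasome (0.53) and 0.45 between that sum and transport and loading (0.31). All cells came from 1 library and 1 depth, so no test was made. The summed level had a Spearman correlation of -0.01 with leukocyte RNA, and the 125 cells at or above the 90th percentile carried 2.89 leukocyte UMIs on average against 3.03 in the rest. Of the genes outside the set, Irf1 followed the sum with a Pearson correlation of 0.21 (Spearman 0.16), and Psmb5 and Actb with 0.09 and -0.04.

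Cells with division genes held less. Those with 3 or more of 10 division genes detected (514 cells) averaged 12.9 UMIs of the presentation genes and those with none (192 cells) 18.1 UMIs, a log2 ratio of -0.48 (-0.54 to -0.42). All 10 genes were lower, H2-T23 most (-1.26, -1.79 to -0.73), while the intervals of Tap1 and Psmb9 spanned 0. The share of all genes lower in this comparison is not given here, so the count cannot be set against genes in general. The division genes took up part of the fixed 3000 UMIs, and the sum was also lower in cells with more total UMIs before thinning (Spearman -0.19), and the part of either in this difference was not tested. In the 192 cells with no division gene the excess squared coefficient of variation of the sum was 0.961. The 2 metastatic clusters differed in the same way, with 3890 CPM of presentation genes and 2139 CPM of division genes in the larger (789 cells) and 6332 and 1372 CPM in the smaller (400 cells). Since the clusters were drawn from all genes, this difference is a description.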

How the data were processed

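Dissociated lung cells of 1 low-burden and 1 high-burden mouse were measured by 10x single-cell RNA sequencing. The deposited values are raw UMI counts per gene and cell, which the authors made with Cell Ranger 2.0.2 against mm10 with the PyMT transgene added; the annotation release is not given in the sources used here, and whether the counts precede the depth equalization of its aggregation step is unclear. The files held 2668 low-burden barcodes, more than the study states for that library after aggregation, and 3121 high-burden barcodes, as the study states. Totals were 14041471 and 52723173 UMIs.

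Cells with 1000 to 7000 genes and at most 10% mitochondrial UMIs were kept. A marker was positive in a cell above 0.5 times the library mean CPM, and a class needed at least 3 positive markers, 40% of its list and a margin of 10 percentage points over the next class. These thresholds were set after the counts had been seen, 2 lists with almost no cells and the neutrophil gate (8 and 20 cells, 12 of the latter in the metastatic clusters) were dropped, and class names are rebuilt here, so differences from the study may come from them. Of 161 markers 6 were absent. The 10 genes, the metastatic markers, all gene lists and the motif letters were chosen with earlier results of these data known, and support nothing independently. Scrublet marked 16 of 5506 cells (0.291%) and so did not work on these data, and doublets were kept.

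Counts were summed per class and library and given as CPM. Ratios carry conditional binomial intervals, levels exact Poisson intervals and shares Clopper-Pearson intervals (95%, counting error only). No test was made, since there was 1 library per group. Genes needed 10 CPM on either side and classes 20 cells. For spread, cells were thinned to 3000 UMIs. All 10 genes were named, as were all members of the standard proteasome, PA28 and regulator lists past 10 CPM and the 2 genes with the largest difference each way of other lists. Similar genes were the 8 with the highest correlation over class sums. Results for 1 gene of these lists are not reported here. Ratios and intervals were checked on simulated data. Positions came from GENCODE for mm10 and promoter windows from RefSeq GRCm38.p6, which matched 9 of 10 genes. Tools were numpy 2.4.6, scipy 1.17.1, pandas 2.3.3, scanpy 1.11.5, leidenalg 0.10.2 and matplotlib 3.10.9.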

Additional observations from a re-analysis of the deposited data

Results flagged for a closer look

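The summed level of the 10 genes moved in opposite directions in 2 lung classes between the same libraries. It was higher at high burden in mesothelial-like cells (log2 ratio 1.06, 20 and 37 cells) and lower in blood vessel endothelial-like cells (-0.76, 522 and 178 cells), the ends of the order over 11 classes. With 1 mouse per group this difference between the classes was not tested.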

How the results depend on the processing

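No paired analysis was possible because each group held 1 library, and for the same reason no replicate could be left out. The summed log2 ratio of metastatic-like over other gated cells (-1.08) stayed negative in all 14 alternatives. It was -1.13 with median-of-ratios scaling (which shifted every gene by -0.05), -1.01 without mitochondrial and ribosomal protein genes in the total, -1.02 after thinning, -1.25 after subtraction of expected free RNA, -0.88 with metastatic cells taken by PYMT and Ccnd1, -1.05 with metastatic cells taken by cluster, -0.86 with lung classes weighted equally and -1.05 without the heavy chains. In alternatives chosen after seeing the data it was -0.86 without C1q macrophage-like cells, -1.54 with the free RNA share at the highest value of the epithelial and endothelial genes and -1.10 in metastatic-like cells with the fewest leukocyte UMIs. The median log2 ratio of high over low burden in the lung classes (0.20) was less settled, at 0.099 with median-of-ratios scaling, 0.29 without mitochondrial and ribosomal protein genes, 0.29 after thinning (9 classes), 0.36 with 1 more marker required (7 classes), 0.28 after free RNA subtraction, 0.56 without the heavy chains and 0.38 with at least 50 cells per library (4 classes). The spread between metastatic-like cells moved by less than 10% in all 8 alternatives. UMIs of both PYMT and Ccnd1 were also present in 541 of the 1347 other gated cells, so that alternative does not separate the cells cleanly. Leaving out the 16 Scrublet doublets removed few cells, and the metastatic clusters were picked by the gate call. Neither of these alternatives could readily have changed the sign of the summed ratio. Classes of 20 to 40 cells and rare genes such as Tap1 limit the precision.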
